A study of Mus musculus with 12 samples.

Results

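The genes of the B cell receptor complex and its proximal signalling chain were read from RNA sequencing of splenic B cells. The 9 genes were Cd79a, Cd79b, Cd22, Ptpn6, Lyn, Syk, Btk, Blnk and Plcg2, taken by symbol from the gene tables. Each was found as 1 locus with 1 symbol, and all 9 were among the 14595 genes tested of 43613 named genes. The libraries came from 6-month-old female mice on a C57BL/6J background, and all of them carried the lupus susceptibility interval Sle1b. The groups were germinal centre (GC) B cells labelled B6.Sle1b.IFNaR1-/- (Ifnar1KO), non-GC B cells labelled Ifnar1KO, GC B cells of B6.Sle1b mice (Sle1b) and non-GC B cells of Sle1b mice, with 3 libraries each. GC cells were sorted as live B220+ GL7+ CD95+ and non-GC cells as live B220+ GL7- CD95-, from pools of total splenocytes. Sle1b is a congenic interval that promotes autoreactive germinal centres, and Ifnar1 is the gene of one subunit of the receptor for type I interferons. The study asked how signalling through this receptor affects B cell selection in autoimmune-prone germinal centres. The labels leave unsaid whether separate animals gave the 3 libraries of each group, so p-values measure only how far these samples spread, and that spread may be technical.

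The B cell receptor pairs a membrane immunoglobulin with the heterodimer of CD79A and CD79B, whose cytoplasmic tails carry the activation motifs that start signalling. The kinase LYN phosphorylates those motifs, SYK docks on them, and the adaptor BLNK then brings BTK to its substrate PLCG2, which releases calcium and activates protein kinase C. CD22, a sialic-acid-binding receptor, recruits the phosphatase PTPN6 (SHP-1) and restrains the same chain, so LYN, which also phosphorylates CD22, acts on both sides. Germinal centre B cells are known for weaker signalling from the receptor than resting follicular B cells, attributed to dampening of proximal kinases by phosphatases.

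All values are FPKM, fragments per kilobase of transcript scaled to library size, joined across the tables of a batch, and the 3 batches named in the deposited files coincided with the replicate numbers. Batch 3 stood apart in every group. The 9 genes spanned 0 to 53.0 FPKM there, with a median of 6.15, against 12.2 to 388 FPKM, with a median of 104, in batches 1 and 2. Actb, a cytoskeletal gene used as a general reference, read 5.78 to 11.5 FPKM in the batch 3 GC libraries and 110 to 120 FPKM in the batch 3 non-GC libraries, while it spanned 287 to 739 FPKM in batches 1 and 2. The reads behind a value, estimated from the steps of the low values and the annotated transcript length, were about 91 to 5738 per gene in batches 1 and 2 and about 0 to 558 in batch 3. Summed over 4 B cell markers (Ms4a1, Pax5, Cd74 and Ebf1), GC libraries held 1138 to 1410 FPKM in batches 1 and 2 and non-GC libraries 1560 to 3573 FPKM. In batch 3 the same sum was 22.2 to 30.2 FPKM in GC and 248 to 287 FPKM in non-GC libraries. A sum of 6 germinal centre markers, Bcl6 and Mki67 among them, was 210 to 555 FPKM in GC libraries of batches 1 and 2 against 49.7 to 88.4 FPKM in their non-GC partners. In batch 3 that sum did not separate the sorted populations, at 18.8 and 14.1 FPKM in GC against 20.2 and 15.3 FPKM in non-GC libraries. In bulk libraries, fewer cells of a type and less RNA per cell cannot be told apart.

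The Ifnar1 transcript itself went against the genotype label in batches 1 and 2. In GC cells it read 14.1 and 15.4 FPKM in those batches and was listed at 0 in batch 3 in the libraries labelled Ifnar1KO, against 8.26, 9.89 and 6.90 FPKM in Sle1b. In non-GC cells it read 51.4, 69.1 and 2.61 FPKM in libraries labelled Ifnar1KO, against 14.5, 36.1 and 3.38 FPKM in Sle1b. The values cover the whole locus and the labels do not say which part was deleted, so every genotype direction given here rests on the labels.

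A few windows around gene starts are shown because they hold motifs of factors known to act at B cell promoters. RefSeq promoter windows of 300 bases, 250 before and 50 after the annotated start (assembly GRCm38.p6), matched 7 of the 9 genes. They were searched on both strands for the palindromic motif of the B lineage factor EBF1, for the octamer ATTTGCAT, for the E box CAGGTG and for the ETS motif AGGAAGT. Capitals mark the matches in the lines of Cd79a at chr7:24897247-24897546 (plus strand), Cd22 at chr7:30878979-30879278 (minus strand) and Blnk at chr19:40994172-40994471 (minus strand), each written 5′ to 3′ along its gene.
Cd79a: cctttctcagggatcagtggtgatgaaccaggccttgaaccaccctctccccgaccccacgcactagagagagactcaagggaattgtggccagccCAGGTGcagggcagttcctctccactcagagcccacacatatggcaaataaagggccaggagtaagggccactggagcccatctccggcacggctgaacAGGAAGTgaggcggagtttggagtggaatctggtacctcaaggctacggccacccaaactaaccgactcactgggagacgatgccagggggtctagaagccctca
Cd22: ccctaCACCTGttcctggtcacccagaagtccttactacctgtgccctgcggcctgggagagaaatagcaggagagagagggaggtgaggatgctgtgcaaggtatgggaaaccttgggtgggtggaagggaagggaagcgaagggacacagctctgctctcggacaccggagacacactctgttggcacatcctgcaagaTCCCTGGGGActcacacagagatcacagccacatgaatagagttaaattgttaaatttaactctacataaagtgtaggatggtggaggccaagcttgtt
Blnk: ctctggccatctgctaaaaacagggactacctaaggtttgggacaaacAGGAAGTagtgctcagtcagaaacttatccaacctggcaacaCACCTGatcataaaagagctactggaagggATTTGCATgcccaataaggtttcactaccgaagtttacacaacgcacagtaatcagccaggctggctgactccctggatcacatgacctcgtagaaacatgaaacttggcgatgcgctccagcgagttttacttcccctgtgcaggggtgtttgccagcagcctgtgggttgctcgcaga
Cd22 was the only one of the 7 with an exact match to the EBF1 motif, 49 bases before its start. Of all 32851 windows, 0.904% held such a match. Blnk alone held the octamer, 130 bases before its start, which stood in 1.74% of all windows. The ETS motif lay in the windows of Cd79a, Blnk and Ptpn6 and in 9.35% of all windows, and the E box in those of Cd79a, Cd22, Syk, Blnk, Plcg2 and Ptpn6 and in 20.2% of all. These matches are letters in a window and were not tied to any measured binding.

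GC cells were first set against non-GC cells, as the sort implies. All 9 genes had negative estimates over both genotypes, and the receptor chain Cd79b and the kinase Lyn had the strongest ones, at -1.76 and -1.38 on the log2(FPKM + 1) scale. None of the 9 passed the threshold of adjusted p 0.05 (limma, Benjamini-Hochberg over 14595 genes), while 0.0274% of all genes tested did. The median estimate of the 9 was -0.73, against -0.25 over all genes, of which 64.6% were below 0. The 4 genes Cd79b, Lyn, Cd79a and Ptpn6 had an unadjusted p under 0.05, as did 17.8% of all genes.
Within libraries labelled Ifnar1KO all 9 estimates were below 0, with a median of -1.18 beside -0.40 over all genes. None of the 9 passed there, against 0.0206% of all genes (3 of 14595), and Syk alone had an unadjusted p under 0.05, as did 12.6% of all. In Sle1b 7 of the 9 estimates were below 0, or 6 with libraries centred, with a median of -0.63 beside -0.11 over all genes. None of the 9 and 0% of all genes (0 of 14595) passed in Sle1b, where Cd79b and Lyn had an unadjusted p under 0.05, as did 9.32% of all. With batches 1 and 2 alone none of the 9 passed either, while 0.326% of genes did under the Ifnar1KO label and 0.106% in Sle1b. Over both genotypes the median of the 9 was then -0.43, against -0.34 over all genes, with 8 of the 9 and 66.5% of all below 0. Under the Ifnar1KO label that median was -0.44 against -0.51 over all genes, and in Sle1b it was -0.43 against -0.15.
Counting within batches, 3 of the 9 genes, Cd79a, Cd79b and Lyn, had the lower value on the GC side of all 6 library pairs, as did 8.65% of all genes. None of the 9 was higher in all 6, where 1.58% of all genes were, or in the 4 pairs of batches 1 and 2, where 10.4% were. Without batch 3 the count was 4 of 9, Btk being added, at 18.7% of all genes, and without batch 2 it was 5 of 9, with Plcg2 and Ptpn6 added, at 18.1% of all. The batch 1 Sle1b pair was joined indirectly, through the libraries labelled Ifnar1KO. There Plcg2 (-0.02) and Ptpn6 (-0.05) were barely below 0. For these genes, Syk and Blnk the route through the non-GC library and that through the GC library ran in opposite directions. With each library centred on its median the count was 2 of 9, Cd79b and Lyn, at 3.14% of all genes. That centring moved the median of all genes from -0.25 to 0.06 and the median of the 9 from -0.73 to -0.41, with all 9 still below 0.

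**Figure D1:**
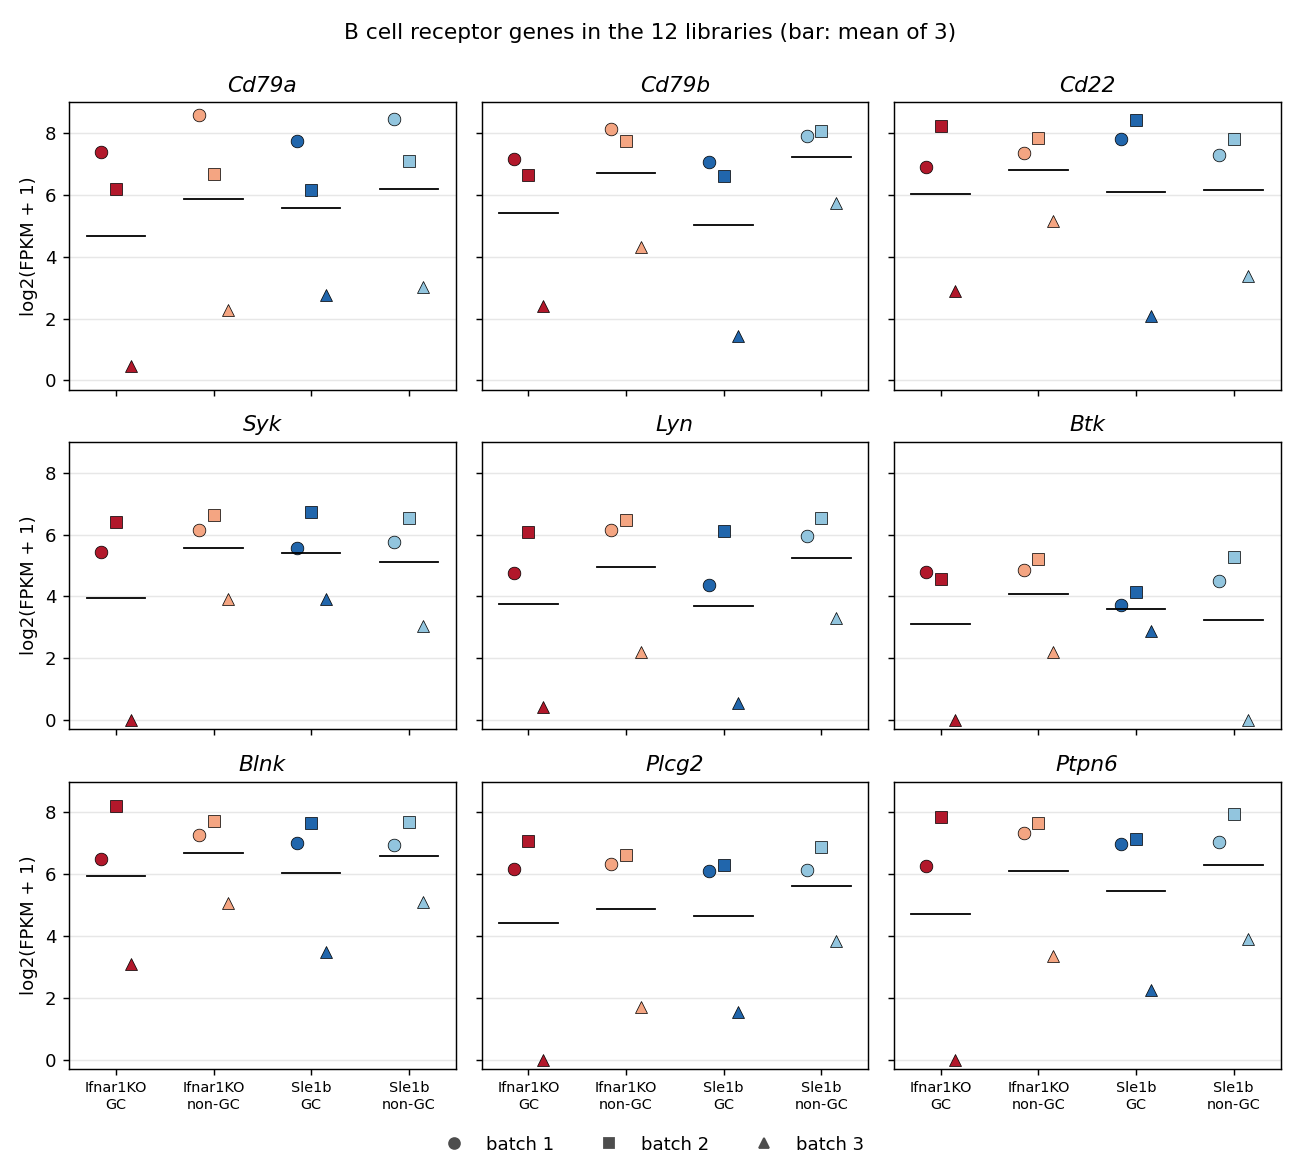
Level of each gene as log2(FPKM + 1) in the 12 libraries, by group, with the marker shape giving the batch and the bar the mean of 3 libraries. Batch 3 (triangles) lies lowest in every group and gene, and Syk, Btk, Plcg2 and Ptpn6 are listed at 0 in the batch 3 GC library labelled Ifnar1KO.

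The chains of the signalling heterodimer were below their non-GC partners in every batch and genotype. With each library centred on its median this held for Cd79b but not for Cd79a. Cd79b (chr11:106310404-106314762, GRCm38), which holds one of the receptor's activation motifs, read 144, 100 and 4.26 FPKM in batches 1, 2 and 3 in GC cells labelled Ifnar1KO, against 279, 215 and 18.9 FPKM in the non-GC cells of that label. In Sle1b it read 134, 96.8 and 1.70 FPKM in GC cells, against 238, 269 and 53.0 FPKM in non-GC cells. Within batches 1 and 2 GC stood at 0.36 to 0.56 of its non-GC partner, and 18.7% of all genes were lower in GC in all 4 of those pairs. The GC difference was -1.32 (SE 0.66, adjusted p = 0.419) in libraries labelled Ifnar1KO and -2.20 (SE 0.66, adjusted p = 0.448) in Sle1b. Over both genotypes it was -1.76 (SE 0.47, adjusted p = 0.110). The widest of the 6 pairs was Sle1b in batch 3, at -4.32 with about 7 reads on the GC side. With batches 1 and 2 alone the difference was -1.08 (SE 0.26, adjusted p = 0.0518), closest to the threshold of any value obtained for the 9 genes, where 5.06% of 12283 genes passed.

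Cd79a (chr7:24896607-24902197), the partner chain, read 166, 71.7 and 0.374 FPKM in GC cells labelled Ifnar1KO, against 388, 102 and 3.91 FPKM in non-GC cells. The Sle1b values were 216, 71.0 and 5.89 FPKM in GC cells, against 350, 136 and 7.23 FPKM in non-GC cells. Every GC library was below its partner of the same batch, but batch separated the levels more than cell type did, and the groups overlapped. Over both genotypes the difference was -0.91 (SE 0.40, adjusted p = 0.264). Batches 1 and 2 alone gave -0.84 (SE 0.26, adjusted p = 0.0958).
The ratio of the chains lay on opposite sides of 1 in batches 1 and 2. In batch 1 Cd79a over Cd79b was above 1 in all 4 libraries (1.15 and 1.61 in GC cells labelled Ifnar1KO and Sle1b, 1.39 and 1.47 in the non-GC cells). In batch 2 it was below 1 in all 4, at 0.71 and 0.73 in GC cells and 0.47 and 0.51 in non-GC cells, so both GC ratios lay above both non-GC ratios there. Batch 3 spread from 0.09 to 3.45, the highest being in Sle1b GC cells, against 0.14 in their non-GC partner.

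The inhibitory receptor showed another pattern. Cd22 (chr7:30864921-30880613) read 120, 303 and 6.46 FPKM in GC cells labelled Ifnar1KO, against 165, 232 and 35.2 FPKM in non-GC cells. In Sle1b it read 225, 341 and 3.21 FPKM in GC cells, against 155, 227 and 9.34 FPKM in non-GC cells. Sle1b GC cells were the higher side in batches 1 and 2, with log2 differences of 0.54 and 0.59, and the lower side in batch 3, with -1.30. Over both genotypes the estimate was -0.42 (SE 0.49, adjusted p = 0.682), and it turned to 0.26 (SE 0.27, adjusted p = 0.581) with batches 1 and 2 alone.
Because both genes came from the same library, their ratio does not depend on its scaling. Cd22 over Cd79b was 0.84 in batch 1 and 3.02 in batch 2 in GC cells labelled Ifnar1KO, against 0.59 and 1.08 in non-GC cells. In Sle1b it was 1.69 and 3.52 in GC cells, against 0.65 and 0.84 in non-GC cells. In batch 3 it was 1.51 against 1.86 in libraries labelled Ifnar1KO and 1.88 against 0.18 in Sle1b. The ratio was thus higher in GC cells in 5 of 6 pairs, a description of 2 genes chosen after their values were seen, with no test.

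**Figure D2:**
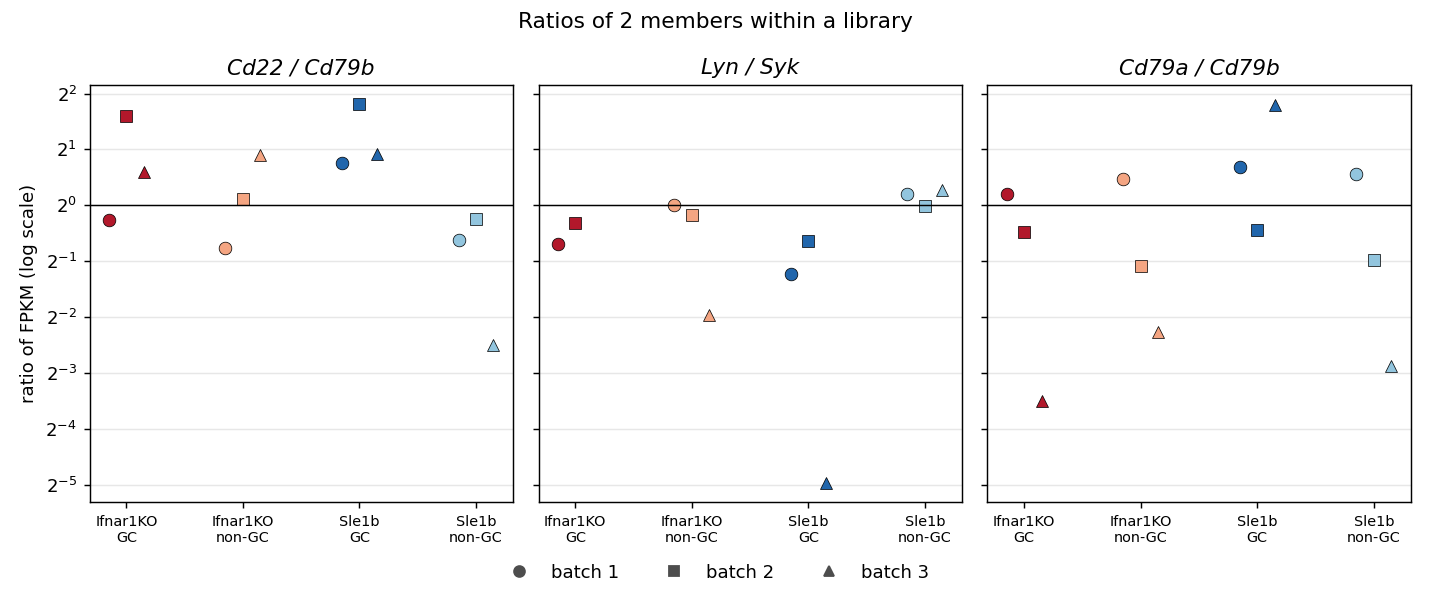
FPKM of one gene over another within each library, on a log scale, for Cd22 over Cd79b, Lyn over Syk and Cd79a over Cd79b, with the marker shape giving the batch. Ratios with a gene listed at 0 are left out. In batches 1 and 2, Lyn over Syk spans 0.42 to 0.80 in GC and 0.88 to 1.14 in non-GC libraries, while Cd79a over Cd79b separates batch 1 from batch 2.

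Ptpn6 (chr6:124720707-124738714), the phosphatase recruited by CD22, read 76.0 and 231 FPKM in GC cells labelled Ifnar1KO and was listed at 0 in batch 3, against 161, 202 and 9.25 FPKM in non-GC cells. The Sle1b values were 126, 139 and 3.78 FPKM in GC cells, against 131, 245 and 13.8 FPKM in non-GC cells. GC was the lower side in 5 of 6 pairs, with batch 2 of the Ifnar1KO label the exception. The batch 1 Sle1b difference was only -0.05. It was joined indirectly, and the routes through the non-GC and the GC library labelled Ifnar1KO ran in opposite directions. Over both genotypes the estimate was -1.14 (SE 0.51, adjusted p = 0.270), and -0.43 (SE 0.31, adjusted p = 0.418) with batches 1 and 2 alone.

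Among the kinases, Lyn was below its non-GC partner in each pair, Syk was not, and Btk differed with the batch. Lyn (chr4:3678115-3813122), the Src family kinase that phosphorylates both the CD79 tails and CD22, read 26.2, 67.5 and 0.347 FPKM in GC cells labelled Ifnar1KO, against 70.4, 87.7 and 3.63 FPKM in non-GC cells. In Sle1b it read 19.9, 68.2 and 0.455 FPKM in GC cells, against 60.6, 91.9 and 8.84 FPKM in non-GC cells. The gap was wider in batch 1 than in batch 2 in both genotypes. Over both genotypes the difference was -1.38 (SE 0.41, adjusted p = 0.132), with -1.18 (SE 0.58, adjusted p = 0.412) in libraries labelled Ifnar1KO and -1.58 (SE 0.58, adjusted p = 0.481) in Sle1b. Batches 1 and 2 alone gave -0.94 (SE 0.32, adjusted p = 0.120).
Syk (chr13:52583173-52650268), the kinase that docks on the phosphorylated tails, read 42.3 and 84.5 FPKM and was listed at 0 in batch 3 in GC cells labelled Ifnar1KO, against 69.9, 99.2 and 14.1 FPKM in non-GC cells. The Sle1b values were 46.8, 106 and 14.3 FPKM in GC cells, against 52.9, 92.6 and 7.27 FPKM in non-GC cells. GC cells were lower in all 3 batches under the Ifnar1KO label, and higher in batches 2 and 3 of Sle1b. The estimates were -1.66 (SE 0.74, adjusted p = 0.387) under that label and 0.30 (SE 0.74, adjusted p = 0.931) in Sle1b. Batches 1 and 2 alone gave -0.47 (adjusted p = 0.516) under the label and 0.01 (adjusted p = 0.993) in Sle1b.
Lyn over Syk was 0.62 and 0.80 in batches 1 and 2 in GC cells labelled Ifnar1KO, against 1.01 and 0.88 in non-GC cells. In Sle1b it was 0.42 and 0.64 in GC cells, against 1.14 and 0.99 in non-GC cells. In batch 3 Sle1b gave 0.03 in GC against 1.22 in non-GC cells, with about 5 Lyn reads on the GC side. In all 5 pairs where both genes were above 0, the ratio was lower in GC cells, again as a description with no test. Ratios also taken for Ptpn6 over Syk, Blnk over Syk and Plcg2 over Btk went both ways between GC and non-GC cells in batches 1 and 2.
Btk (chrX:134542008-134583570), the Tec family kinase that activates PLCG2, had the lowest median level of the 9 over batches 1 and 2 in both sorted populations. It read 26.6 and 22.9 FPKM and was listed at 0 in batch 3 in GC cells labelled Ifnar1KO, against 27.8, 35.9 and 3.64 FPKM in non-GC cells. In Sle1b it read 12.2, 16.7 and 6.41 FPKM in GC cells, against 21.6 and 37.4 FPKM and a listed 0 in batch 3 in non-GC cells. The 4 pairs of batches 1 and 2 ran lower in GC, and batch 3 of Sle1b ran the other way, against that listed 0. The estimate in Sle1b was accordingly 0.31 (SE 0.75, adjusted p = 0.930) with all batches and -0.94 (adjusted p = 0.395) with batches 1 and 2 alone.

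**Figure D3:**
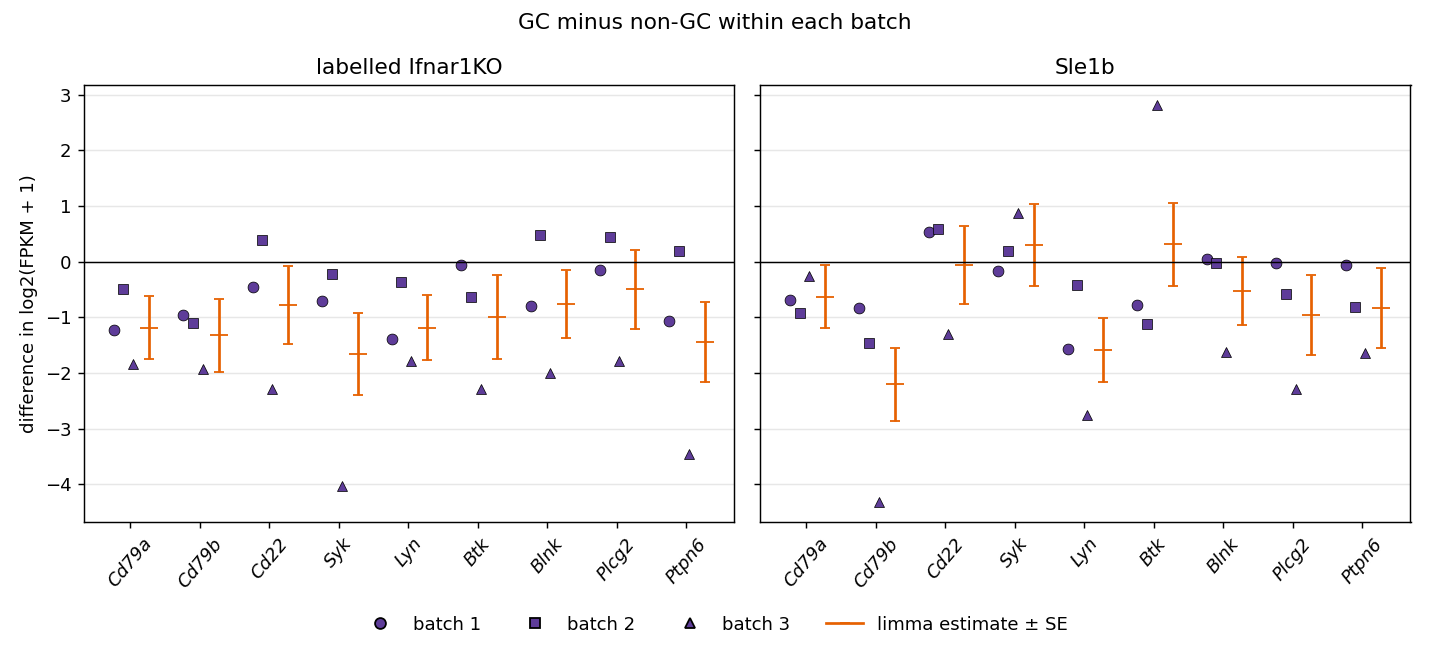
GC minus non-GC difference in log2(FPKM + 1) for each gene and batch (purple), with the limma estimate and its SE (orange), in libraries labelled Ifnar1KO and in Sle1b. Cd79a, Cd79b and Lyn lie below 0 in all 6 pairs. Btk in Sle1b batch 3 (2.82) is measured against a listed 0.

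The adaptor and the effector lipase had GC estimates over both genotypes near 0 outside batch 3, averaged from pairs on both sides of 0. Single pairs of batches 1 and 2 spanned -0.79 to 0.49 for Blnk and -0.58 to 0.45 for Plcg2. Blnk (chr19:40928927-40994535), which scaffolds BTK and PLCG2, read 88.5, 293 and 7.54 FPKM in GC cells labelled Ifnar1KO, against 154, 209 and 32.9 FPKM in non-GC cells. The Sle1b values were 128, 200 and 10.3 FPKM in GC cells, against 124, 204 and 33.6 FPKM in non-GC cells. The groups overlapped in batches 1 and 2, and only batch 3 had GC lower in both genotypes. Its estimate over both genotypes was -0.65 (SE 0.43, adjusted p = 0.451), and -0.07 (SE 0.30, adjusted p = 0.911) with batches 1 and 2 alone.
Plcg2 (chr8:117498291-117635140), which cleaves a membrane phospholipid into the second messengers for calcium and protein kinase C, read 71.0 and 134 FPKM and was listed at 0 in batch 3 in GC cells labelled Ifnar1KO, against 79.0, 98.2 and 2.24 FPKM in non-GC cells. In Sle1b it read 68.0, 78.0 and 1.91 FPKM in GC cells, against 69.0, 117 and 13.2 FPKM in non-GC cells. Here too the 2 populations overlapped. The estimate was -0.73 (SE 0.51, adjusted p = 0.470), and -0.08 (SE 0.27, adjusted p = 0.896) with batches 1 and 2 alone.

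Per kilobase of transcript, the order of the 9 levels differed between the sorted populations in batches 1 and 2. By the median of 4 libraries, GC cells ran Cd22 (264 FPKM), Blnk (164), Ptpn6 (133), Cd79a (119), Cd79b (117), Plcg2 (74.5), Syk (65.7), Lyn (46.8) and Btk (19.8). Non-GC cells ran Cd79b (253 FPKM), Cd79a (243), Cd22 (196), Ptpn6 (181), Blnk (179), Plcg2 (88.6), Syk (81.2), Lyn (79.0) and Btk (31.9). By these medians the inhibitory receptor stood first in GC cells and the CD79 chains in non-GC cells, with Plcg2, Syk, Lyn and Btk in the same places in both. Single libraries departed from that order: in the batch 1 GC library labelled Ifnar1KO Cd79a and Cd79b (166 and 144 FPKM) were above Cd22 (120 FPKM), and in the batch 2 non-GC library of that label Cd22 (232 FPKM) was above Cd79a (102 FPKM). The ranges of neighbours in the GC order overlapped throughout, and in the non-GC order all neighbours overlapped except Blnk with Plcg2 and Lyn with Btk. Across all 12 libraries, after removal of batch means, the 36 pairs of these genes had Pearson correlations from -0.205 to 0.913 with a median of 0.574, the highest being Cd79b with Lyn. In batches 1 and 2 alone (8 libraries) they ran from -0.900, for Cd22 with Btk, to 0.914, for Cd79a with Cd79b. The points share library, depth and scaling, so these are descriptions.

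Libraries labelled Ifnar1KO were then compared with Sle1b libraries, the comparison that the study's question on interferon receptor signalling asks for. In GC cells 0 of the 9 genes passed the threshold, as did 0% of all genes (0 of 14595), while 6.37% of all had an unadjusted p under 0.05 and none of the 9 did. The strongest estimate was that of Syk, at -1.50 (SE 0.74, adjusted p = 0.771), followed by Cd79a at -0.90 (SE 0.57, adjusted p = 0.801). With batches 1 and 2 alone Syk stood at -0.23, and the estimate farthest from 0 was that of Btk, at 0.75. Of the 9 estimates, 7 were below 0, with a median of -0.26 beside -0.26 over all genes, and with libraries centred on their medians 4 of 9 were. In batches 1 and 2 alone the 9 estimates in GC cells lay between -0.54 and 0.75 with a median of 0.01, where 0.00814% of genes passed and none of the 9 did. The 4 genes listed at 0 in the batch 3 library labelled Ifnar1KO (Syk, Btk, Plcg2 and Ptpn6) read 14.3, 6.41, 1.91 and 3.78 FPKM in its Sle1b partner.
In non-GC cells 0 of the 9 passed, as did 0% of all genes, and 1.78% of all had an unadjusted p under 0.05 against none of the 9. Estimates ran from -0.73 for Plcg2 to 0.81 for Btk, with SEs of 0.71 and 0.75. Batches 1 and 2 narrowed this range to between -0.13 and 0.25, with 0 of 12283 genes passing (0%). Over both cell types the range was -0.62 to 0.28, again with no gene of the 9 and 0% of all passing, and 3.96% of all at an unadjusted p under 0.05. None of the 9 was lower in the library labelled Ifnar1KO in all 6 pairs, where 2.27% of all genes were, and none was higher in all 6, where 0.576% were.

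The interaction, the test of whether the GC difference depended on the genotype label, passed for 0 of the 9 genes and for 0% of all, with 3.65% of all genes and none of the 9 at an unadjusted p under 0.05. Syk had its largest value, at -1.96 (SE 1.05, adjusted p = 0.994). Syk was lower in GC cells labelled Ifnar1KO than in Sle1b GC cells in all 3 batches, with log2 differences of -0.14, -0.33 and -4.04, and higher in non-GC cells of that label in all 3, with 0.39, 0.10 and 0.87. The one wide value among these is against a listed 0 in batch 3, and with batches 1 and 2 alone the interaction was -0.48. How many of all genes share this pattern of directions was not counted.

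**Figure D4:**
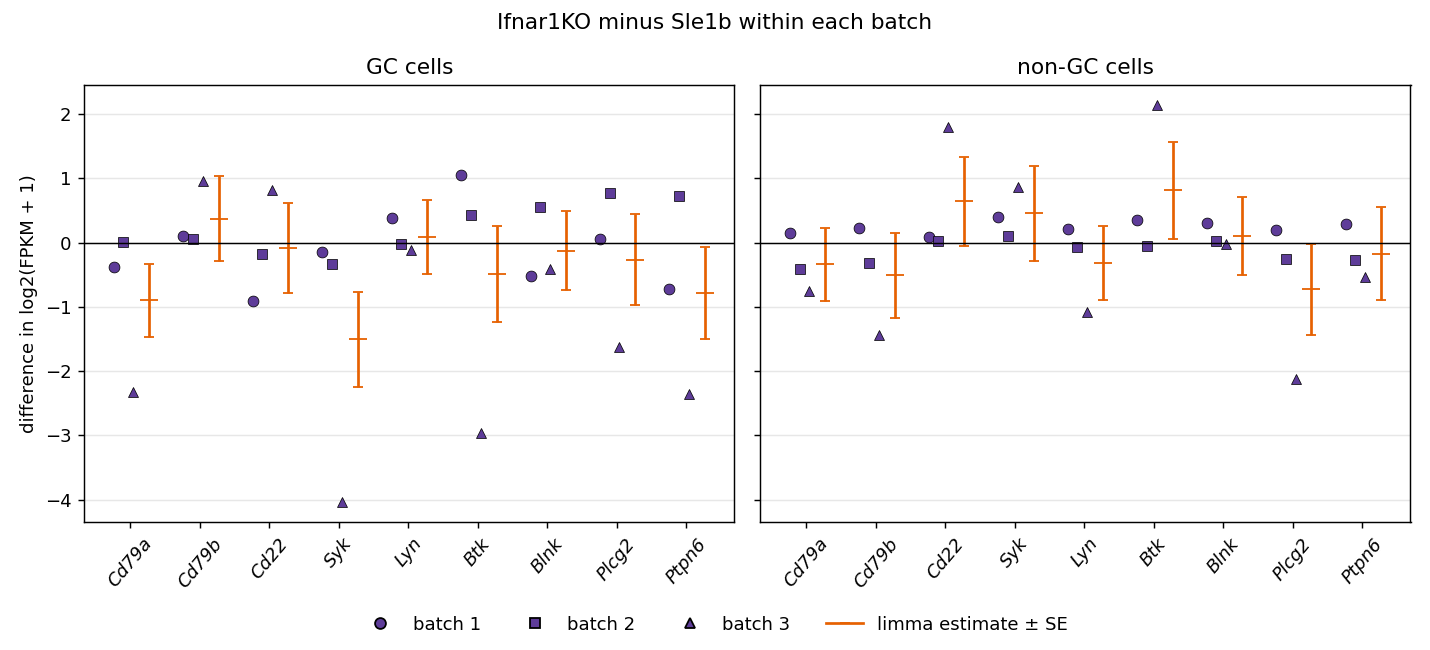
Ifnar1KO minus Sle1b difference in log2(FPKM + 1) for each gene and batch (purple), with the limma estimate and its SE (orange), in GC and in non-GC cells. The widest values in both panels come from batch 3, and in non-GC cells the points of batches 1 and 2 lie close to 0.

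The authors' own p-values and q-values compare 1 library with 1 library. In the authors' deposited tables of GC against non-GC cells of 1 genotype, a q-value under 0.05 was listed for Syk (0.0281) and Ptpn6 (0.0290) in libraries labelled Ifnar1KO and for Btk (0.0223) in Sle1b. In the authors' deposited tables of the 2 genotypes in 1 cell type it was listed for Syk in GC cells (0.0136) and for Btk in non-GC cells (0.0407). All 5 came from batch 3 and from a pair with 1 side listed at 0. For Cd79a, Cd79b, Cd22, Lyn, Blnk and Plcg2 no such table listed a q-value under 0.05, and for Cd79b the lowest was 0.239, in the authors' deposited tables.

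Other genes of the pathway were read from lists of coreceptor, kinase, adaptor, calcium, inhibitory and phosphatase genes. Of 65 genes, 61 entries were tested in GC against non-GC cells over both genotypes. None passed in either direction, beside 0.0274% of all genes, 44 of the 61 were below 0, beside 64.6% of all genes, and their median was -0.54. The 3 entries tested of the coreceptor list were Cr2, Cd81 and Ptprc, and all 3 were below 0.
Cr2, the complement receptor of the coreceptor complex, had the strongest estimate at -2.38 (SE 0.51, adjusted p = 0.0819). It read 37.6, 143 and 0.0363 FPKM in GC cells labelled Ifnar1KO and 41.4 and 92.6 FPKM and a listed 0 in Sle1b GC cells, against 194, 240 and 7.19 FPKM and 156, 256 and 28.4 FPKM in their non-GC partners. All 6 pairs were lower in GC. CR2 is known as a marker of follicular and marginal zone B cells, and a sum of 5 resting B cell markers (Fcer2a, Ccr7, Cd55, Bcl2 and Klf2) was lower too, at 98.4 to 223 FPKM in GC against 496 to 949 FPKM in non-GC libraries of batches 1 and 2. The part of the cell mix in these values was not tested.
Bank1, a scaffold that links LYN to calcium release, had -2.30 (SE 0.50, adjusted p = 0.0820) among 15 adaptor and PI3K entries, of which 10 were below 0. It read 87.1, 177 and 1.78 FPKM in GC cells labelled Ifnar1KO and 98.1, 185 and 0.731 FPKM in Sle1b GC cells, against 312, 458 and 21.6 FPKM and 283, 420 and 49.7 FPKM in non-GC cells. Again every GC library was below its partner. Vav3, a guanine nucleotide exchange factor, had -1.68 (SE 0.47, adjusted p = 0.122).
Calcium and protein kinase C genes had 15 of 16 estimates below 0 and a median of -0.77, beside 64.6% and -0.25 over all genes. Under the Ifnar1KO label 15 of 16 were below 0, beside 68.2% of all genes, and in Sle1b 11 of 16, beside 55.8%. The list was not counted in batches 1 and 2 alone. Its largest estimates were Nfatc3 at -1.47 (SE 0.48, adjusted p = 0.156), a calcium-dependent transcription factor, and Rasgrp3 at -1.31 (SE 0.52, adjusted p = 0.229), a Ras activator. The batch 3 pairs held their widest differences, at -2.86 in both genotypes for Nfatc3 and at -3.77 and -2.48 in libraries labelled Ifnar1KO and Sle1b for Rasgrp3. In batches 1 and 2 the pairs lay between -1.85 and -0.35 for Nfatc3 and between -1.37 and 0.36 for Rasgrp3. The entry that joins the heavy chain genes Ighm and Ighd stood at -1.08 (SE 0.52, adjusted p = 0.299). Ptprc, the phosphatase CD45 that keeps Src kinases active, had -1.51 (SE 0.61, adjusted p = 0.231), with batches 1 and 2 between -0.78 and 0.04.
Src family and related kinases, inhibitory receptors and phosphatases were mixed, with 3 of 5, 6 of 10 and 6 of 11 below 0. The largest estimates there were Fyn, a Src family kinase, at 1.09 (SE 0.59, adjusted p = 0.350), Pag1, an adaptor that anchors the Src inhibitor CSK, at -0.77 (SE 0.40, adjusted p = 0.326), and Fcrl1 at -1.57 (SE 0.40, adjusted p = 0.109) and Fcrl5 at -1.46 (SE 0.51, adjusted p = 0.180), both Fc receptor-like proteins of B cells. Among phosphatases and adaptors that restrain signalling they were Sh2d1b1 at 1.91 (SE 0.97, adjusted p = 0.317) and Ptpn12 at 1.22 (SE 0.49, adjusted p = 0.231). Sh2d1b1, a SAP family adaptor, rested on Sle1b GC cells of batches 2 and 3 (65.4 and 927 FPKM), since no other library exceeded 2.84 FPKM.

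**Figure D5:**
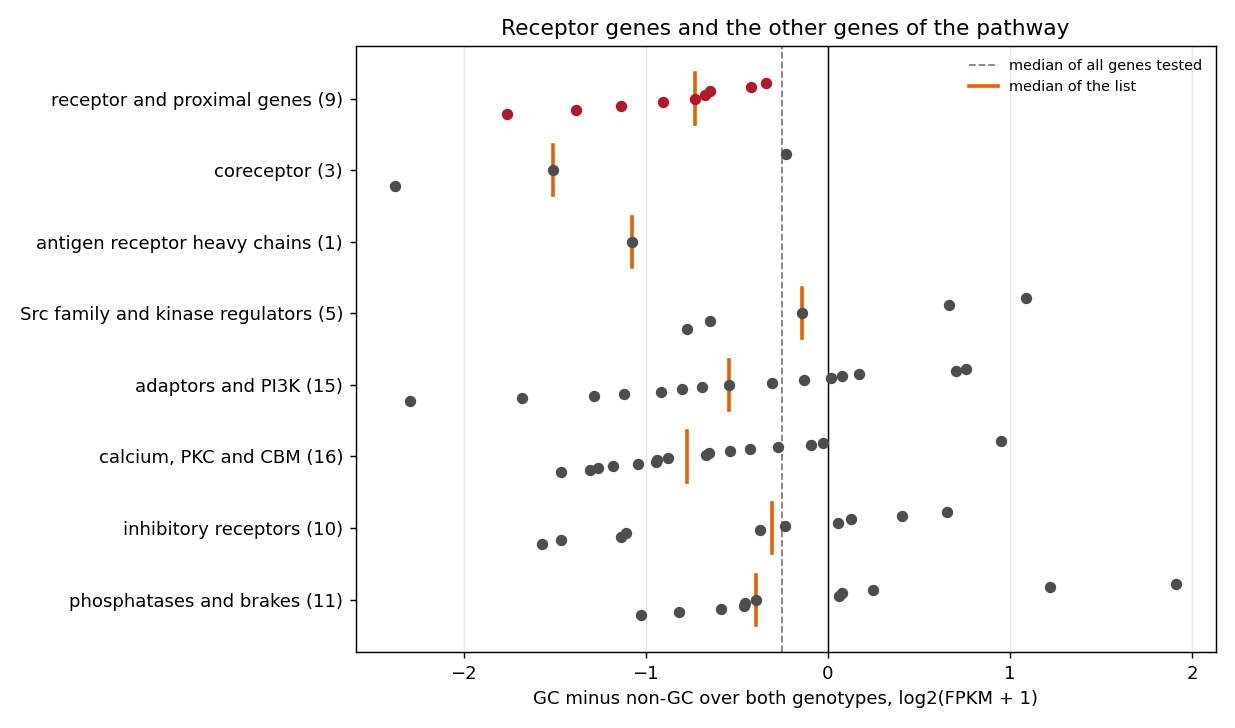
GC minus non-GC estimate over both genotypes in log2(FPKM + 1) for the receptor and proximal genes (red) and the other pathway lists (grey), one point per gene, with the number tested in brackets. Orange bars are list medians and the dashed line is the median of all genes tested (-0.25). The 9 receptor genes lie between -1.76 and -0.34.

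By profile over the 12 libraries after removal of batch means, the genes most like the mean of the 9 were Fchsd2 (Pearson r = 0.988), Rps27a (0.987) and Ppia (0.985), and the least alike was Arhgap23 (-0.961). In batches 1 and 2 alone these genes stood, in the same order, at 0.909, 0.908, 0.875 and -0.725. Rps27a encodes a ribosomal fusion protein and Ppia the isomerase cyclophilin A, both expressed in nearly all cells. The likeness is a description over libraries that share depth and scaling.
Markers of other cell types were summed in the same libraries. Over 8 T cell markers, libraries held 9.56 to 28.4 FPKM under the Ifnar1KO label in GC cells and 16.4 to 127 FPKM in Sle1b GC cells, against 9.34 to 24.6 FPKM and 6.22 to 25.1 FPKM in their non-GC partners, with Cd3g and Cd8a listed at 0 throughout in GC cells labelled Ifnar1KO and in Sle1b non-GC cells. In batch 3 the GC libraries labelled Ifnar1KO and Sle1b held T cell sums of 28.4 and 127 FPKM beside B cell marker sums of 22.2 and 30.2 FPKM. In batches 1 and 2 the T cell sums of GC libraries were 9.56 to 27.2 FPKM and the B cell sums 1138 to 1410 FPKM. Over 7 myeloid markers, a lineage that also uses Lyn, Syk, Btk, Plcg2 and Ptpn6, the sum was 0.0263 to 22.4 and 5.86 to 38.9 FPKM in GC cells labelled Ifnar1KO and Sle1b, against 1.10 to 25.1 and 13.8 to 28.7 FPKM in non-GC cells, with Cd14 listed at 0 in every group except Sle1b GC. Their part in the levels of the 9 genes was not tested.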

How the data were processed

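The tools named in the submitters' processing notes are CASAVA, TopHat2 2.0.9 with Bowtie2 2.1.0, and Cuffdiff with Cufflinks 2.2.1, on GRCm38, and cDNA came from a low-input SMARTer kit with Nextera XT, per the labels' protocols. Each of the 17 deposited tables compared 1 library with 1 other of the same batch and gave FPKM values normalized by the authors within that pair. The authors' p-value and q-value were deposited beside them. In batch 1 the direct table of Sle1b GC and non-GC cells was not used here.

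Log2(FPKM + 1) ratios were joined within a batch by least squares into 1 value per gene and library, so levels set side by side across batches come from separately normalized tables. Genes with at least 1 FPKM in 3 libraries were tested with limma 3.58.1 in R 4.3.3 (mean-variance trend, 12 libraries, group and batch terms, 6 residual degrees of freedom, Benjamini-Hochberg over 14595 genes, threshold 0.05). A fold on this scale understates changes of low genes. Exact zeros may be failed estimates and are written as listed at 0. Strand is not stated to be kept, and overlapping genes cannot be told apart.

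Batch numbers, which the deposited files name, entered as a block and matched the replicate numbers in all 12 libraries. After removal of group means libraries correlated within a batch at 0.276 or more in batch 1, 0.398 in batch 2 and 0.524 in batch 3, and at up to 0.460 between batches 1 and 2. Low values were whole multiples of 1 read (within 0.1 read) in 100% of the loci checked. Estimated totals on named genes were 732000 to 5700000 reads per library, a rough figure that rests on annotated lengths. The lowest total was that of the batch 3 Sle1b GC library, which limits its precision.

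All 9 genes are named with every library value. From the pathway lists the genes past the threshold were to be named, or else the 2 with the largest difference per list. A few listed genes are not reported here and were left out of the counts and sums of their lists. Members and lists were chosen with earlier results of these data known. Alternatives changed the filter, the pseudocount, the scaling, the joining, the batch block and the libraries used. The fit was tested on simulated data in which most genes were given less spread than in the real libraries. The planted changes were larger than any estimate of the 9 genes over both genotypes. That test therefore cannot tell how the fit behaves at the real spread.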

Additional observations from a re-analysis of the deposited data

Results flagged for a closer look

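Syk, the kinase docking on the CD79 tails, was flagged because its difference between the genotype labels ran in opposite directions in the 2 sorted populations. In GC cells libraries labelled Ifnar1KO were below Sle1b in all 3 batches, at -0.14, -0.33 and -4.04 on the log2(FPKM + 1) scale, and in non-GC cells they were above it in all 3, at 0.39, 0.10 and 0.87. The test of the difference itself gave an interaction of -1.96 (SE 1.05), which did not pass (limma, adjusted p = 0.994). The interaction ranged from -2.72 to -0.48 with a library or batch left out, the value nearest 0 being that of batches 1 and 2 alone. Without the batch 3 GC library labelled Ifnar1KO, where Syk was listed at 0, it was -0.81. The rule behind the flag was applied to the 9 genes only, so the share of all genes that meet it was not counted. Of all genes tested, 58.3%, 52.9% and 62.7% were lower under the Ifnar1KO label in GC cells of batches 1, 2 and 3. In non-GC cells 34.5%, 41% and 53.3% were.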

How the results depend on the processing

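Under the 22 alternatives none of the 9 genes passed the threshold in any of the 7 comparisons, the lowest adjusted p being 0.0518. Over all genes, the number called in GC against non-GC over both genotypes was 4 as reported, 622 in batches 1 and 2 with the filter redone, 58 with the mean over tables, 27 with the stricter filter, 27 with centring, 1 without a filter, 1 with the pseudocount of 0.1 and 0 without the replicate block, and 0 to 13 with a library or batch left out. In libraries labelled Ifnar1KO it was 3 as reported and 40 in batches 1 and 2, and in Sle1b 0 and 13. The replicate block changed no call of the 9 genes: without it their count past the threshold stayed 0 in each comparison. Of 1012 alternative values of 46 single gene differences, 953 kept their direction and 59 reversed. None of them passed the threshold, and the cause was not tested. Of the interactions, these differences included only that of Syk. They left out Ifnar1KO against Sle1b over both cell types. The count of genes lower in all GC pairs, 3 of the 9 as reported beside 8.65% of all genes, was 5 without batch 2, beside 18.1% of all. With centring it was 2, beside 3.14% of all (these settings were chosen after seeing the data).
With batches 1 and 2 alone, GC against non-GC reversed for Cd22 (0.26 over both genotypes, 0.56 in Sle1b), for Btk (-0.94) and Blnk (0.0082) in Sle1b and for Plcg2 (0.15) under the Ifnar1KO label. Ifnar1KO against Sle1b reversed there for Lyn (0.073) and Ptpn6 (0.011) in non-GC cells and for Btk (0.75), Blnk (0.013) and Plcg2 (0.42) in GC cells. With centring, Cd22 in Sle1b became 0.10, and in GC cells Ifnar1KO against Sle1b became 0.29 for Cd22, 0.25 for Blnk and 0.11 for Plcg2. With the mean over tables that last comparison was 0.010 for Cd22.
Leaving out 1 library or batch at a time, GC against non-GC over both genotypes ranged from -0.87 to 0.26 for Cd22. In Sle1b it ranged from -0.49 to 0.70 for Cd22, -0.24 to 0.68 for Syk, -0.94 to 1.02 for Btk and -0.82 to 0.0082 for Blnk, and under the Ifnar1KO label from -1.37 to 0.063 for Cd22 and -1.06 to 0.39 for Plcg2. Ifnar1KO against Sle1b in GC cells ranged from -0.28 to 0.75 for Cd79b, -0.84 to 0.35 for Cd22, -0.21 to 0.45 for Lyn, -1.26 to 0.75 for Btk, -0.64 to 0.35 for Blnk, -0.83 to 0.63 for Plcg2 and -1.57 to 0.21 for Ptpn6. In non-GC cells it ranged from -1.05 to 0.25 for Cd79b, -0.20 to 1.15 for Cd22, -0.72 to 0.24 for Lyn, -0.23 to 0.53 for Blnk, -1.25 to 0.17 for Plcg2 and -0.52 to 0.42 for Ptpn6. Several of the 9 genes rested on fewer than 10 estimated reads in batch 3, which limits their precision there, although library totals of batch 3 lay below, among and above those of the other batches.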
